A study of Homo sapiens with 7 samples.

Results

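Messenger RNAs published as bound by the oncofetal RNA-binding protein IGF2BP1 were examined after depletion of that protein. The set was BTRC, MAPK4, CD44, SIRT1, FOXK1 and MITF, chosen by name by a rule that uses no measured value, though with earlier results of these data known, and all 6 were found among the 58174 genes listed. FOXK1 was reported by the study of these libraries itself, with IGF2BP1 sites in its 3′UTR taken from public data. There its mRNA was lower after IGF2BP1 depletion in other cancer cell lines (RT-qPCR). Huh-7, an established cell line of human liver cancer, had been transfected with a control siRNA (siC, 3 libraries) or with siRNAs directed against IGF2BP1 (siIGF2BP1, 4 libraries). Both groups received siRNA and are labelled only by its target, and total RNA was taken 72 h later. Whether the groups also differed in batch or day of culture is not given in the sources used here. No untransfected library was analysed here. According to the study's methods the IGF2BP1 siRNAs were a pool, and the labels do not say whether the libraries of a group came from separate cultures. Values are FPKM, that is fragments per gene scaled to the gene's length and to the size of the library, so that levels can be compared between genes. The main test took genes whose values averaged 1 FPKM or more across all 7 libraries. FOXK1, SIRT1 and BTRC met it, and CD44, MAPK4 and MITF did not.

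IGF2BP1 is abundant in the embryo and again in many tumors, among them tumors of the liver. It binds mRNAs through RRM and KH domains, mostly in the 3′UTR and in part at sites carrying N6-methyladenosine (m6A). Bound mRNAs can be protected from degradation, often from microRNA (miRNA)-directed decay, or held back from translation, so that the level of a bound mRNA need not follow the protein. The examined mRNAs encode proteins of different kinds. BTRC (β-TrCP1) is the substrate receptor of an SCF ubiquitin ligase that marks phosphorylated β-catenin and IκBα for degradation. MAPK4 (ERK4) is an atypical MAP kinase that activates the kinase MK5. CD44 is the main cell surface receptor for hyaluronan. SIRT1 is an NAD-dependent protein deacetylase, FOXK1 a forkhead transcription factor and MITF the basic helix-loop-helix factor that directs the melanocyte program.

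For some of these mRNAs a miRNA has been described whose action IGF2BP1 can modulate or which represses the mRNA. The mature sequences of miR-183-5p (described for BTRC), miR-22-3p (for SIRT1) and miR-340-5p (for MITF) are shown because their seeds define the sites searched in the members. They are given 5′ to 3′ from RefSeq, with the seed (bases 2 to 8) in capitals.
hsa-miR-183-5p: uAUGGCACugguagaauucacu
hsa-miR-22-3p: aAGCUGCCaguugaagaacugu
hsa-miR-340-5p: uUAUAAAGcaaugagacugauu
The seeds differ from each other. They derive from loci on chromosomes 7, 17 and 5, respectively.

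Matches to these seeds, meaning 7 bases complementary to the seed, were searched in the canonical transcript of each member (GENCODE v44, GRCh38). All members lie on the plus strand. Sites in the 3′UTR are printed as the 29 bases around the match, which is in capitals, and each lies in the last exon of its gene.
SIRT1, match to miR-22-3p, chr10:67917112-67917140, exon 9: tccaaaactgtGGCAGCTaactttttaaa
MITF, match to miR-340-5p, chr3:69965760-69965788, exon 10: ctttgtttagtCTTTATActgcaaactat
CD44, match to miR-340-5p, chr11:35231769-35231797, exon 18: ttaaactgggtCTTTATAaaagtaaaagg
BTRC, match to miR-22-3p, chr10:101554727-101554755, exon 15: gtcactcggaaGGCAGCTgtgtgagctgc
MAPK4, match to miR-183-5p, chr18:50731627-50731655, exon 6: ccactcctcatGTGCCATtttgtcctcag
FOXK1, first match to miR-22-3p, chr7:4762512-4762540, exon 9: aagctggacccGGCAGCTcaggcggccgc
FOXK1, second match to miR-22-3p, chr7:4770736-4770764, exon 9: tgacaaaggccGGCAGCTcagcacacgtg
SIRT1 and MITF each held a match to the miRNA described for them. BTRC held no match to miR-183-5p in any region of its canonical transcript. Only complete 7-base matches in that transcript were counted, so the absence does not tell whether miR-183-5p acts on BTRC. FOXK1 held 1 further match to miR-22-3p in its coding region and MAPK4 held 2 in its 5′UTR.

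Such matches are common. Of the 3′UTRs between 0.8 and 1.25 times as long as that of the member, a match to miR-22-3p was found in 16.0% for the length of SIRT1, 29.7% for BTRC and 46.3% for FOXK1. The share with a match to miR-340-5p was 29.0% for the length of MITF and 29.1% for CD44, and the share with a match to miR-183-5p was 12.4% for MAPK4. A match describes the sequence only, and the level of these miRNAs in the cells was not measured in these libraries.

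The transcripts differed in length and base composition, which bears on the comparison of libraries below. FOXK1 (chr7:4682295-4771442) had the longest 3′UTR, 8978 bases, and the highest GC content, 57.5% over the canonical transcript. SIRT1 (chr10:67884656-67918390) had the shortest 3′UTR, 1797 bases, and the lowest GC content, 40.6%. BTRC (chr10:101354033-101557321), CD44 (chr11:35138882-35232402) and MITF (chr3:69739456-69968336) had 3′UTRs of 4190, 3069 and 3084 bases and a GC content of 44.9%, 44.3% and 41.2%, respectively. MAPK4 (chr18:50560087-50731826) had a 3′UTR of 1972 bases and a GC content of 55.7%. None overlapped another protein-coding gene in the annotation. Over their whole spans, introns included, all but SIRT1 overlapped at least 1 non-coding gene. Whether exons overlapped was not examined, and the use of strand in counting was not given in the sources used here. It is therefore not known whether reads of these non-coding genes entered the counts of the members.

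The letters GGAC, the core of the m6A consensus, were counted on the mRNA strand of the 3′UTR. FOXK1 held 35 matches, or 3.90 per kb, which lay at percentile 72.4 of 19195 annotated 3′UTRs. MAPK4 (3.55 per kb) and BTRC (2.86 per kb) were also above the median of 2.29 per kb. MITF (1.62 per kb), SIRT1 (1.67 per kb) and CD44 (1.30 per kb) were below it. The letters CAT, found at many IGF2BP1 binding sites, ranged from 10.2 per kb in FOXK1 to 18.8 per kb in MITF, against a median of 16.3 per kb. Methylation was not measured in these libraries.

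The libraries held 12826550 to 33212205 reads on genes. IGF2BP1 itself ranged from 80.4 to 84.4 FPKM in siC and from 15.3 to 16.6 FPKM in siIGF2BP1, a mean of 19.2% of siC, so the labels of all 7 libraries matched its level. The 9 hepatocyte markers examined were all above 1 FPKM, summing to 5867 to 7298 FPKM in siC and 6759 to 6919 FPKM in siIGF2BP1. Of 10 markers of immune, endothelial, fibroblast and melanocyte cells only PECAM1 reached 1 FPKM and TYR was at 0 in every library, and the 10 summed to 3.06 to 3.62 FPKM in siC and 3.59 to 3.88 FPKM in siIGF2BP1. Over all genes, 338 of 14839 (2.28%) were lower and 245 (1.65%) higher in siIGF2BP1 at an adjusted p of at most 0.01, the threshold used throughout (limma on log2(FPKM + 0.1), Benjamini-Hochberg adjustment). The median log2 difference of all genes tested was -0.017. In bulk RNA, fewer cells of a type and less RNA per cell cannot be told apart.

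The library siC replicate 3 stood apart. Across genes, its deviation from the mean of its group correlated with the GC content of the transcript at a Spearman's rho of -0.43, against 0.43 and 0.30 for siC replicates 1 and 2, which is a description over genes that share the same libraries. Deviations from a group mean cancel out within the group, so opposite signs are in part forced. The rho alone therefore does not single out siC replicate 3. In siIGF2BP1 the same measure ran from -0.39 (replicate 2) to 0.26 (replicate 3). When libraries were weighted by their spread, siC replicate 3 received the lowest weight, 0.0986. The differences of the members and the medians and counts of the gene lists are therefore also given without it.

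None of the members passed the threshold. Of the 3 tested, 0 were called against 2.28% of all genes in the lower and 1.65% in the higher direction, and 0 had an unadjusted p under 0.05, against 25.9% of all genes. In the fit without a filter, which took in all genes above 0 in any library, 0 of the 6 were called against 1.03% of 34319 genes, again with 0 at an unadjusted p under 0.05, against 15.8%. With voom on the reads recovered from the FPKM values, 0 of 6 were called, against 3.65% of 24480 genes, and 1, CD44, had an unadjusted p under 0.05, against 22.6%. Without siC replicate 3 the count was again 0 of 3, beside 6.67% of all genes lower and 3.59% higher, and 0 of 6 without the filter, beside 2.59% of genes in both directions, and FOXK1 alone had an unadjusted p under 0.05 (limma), against 38.3% of the genes tested with the filter and 20.7% of those without it.

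**Figure D1:**
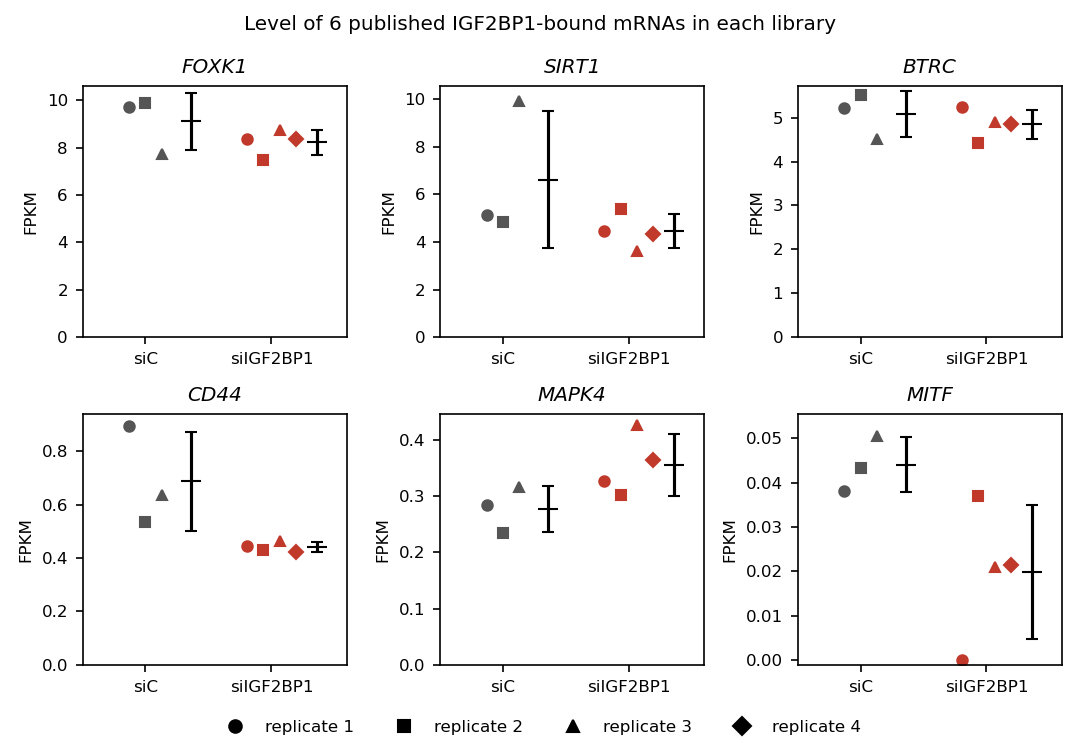
FPKM of the 6 mRNAs in each library (symbols, by replicate number) with the mean and SD beside each group, siC in grey (n = 3) and siIGF2BP1 in red (n = 4); each panel has its own linear axis. The siC and siIGF2BP1 values overlap for FOXK1, SIRT1, BTRC and MAPK4 and do not overlap for CD44 and MITF, and SIRT1 in siC replicate 3 (9.91 FPKM) lies far from the other siC values.

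The order of the mean levels in siC was FOXK1, SIRT1, BTRC, CD44, MAPK4 and MITF. Among protein-coding genes these levels ranked at percentile 75.3 for FOXK1, 69.4 for SIRT1, 64.7 for BTRC, 44.02 for CD44, 39.0 for MAPK4 and 30.2 for MITF. In siC, SIRT1 overlapped both of its neighbours FOXK1 and BTRC between libraries, whereas the other neighbours in this order did not overlap. In siIGF2BP1 BTRC (4.85 FPKM) stood above SIRT1 (4.44 FPKM) with overlapping libraries, and CD44 and MAPK4 also overlapped.

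BTRC was at 5.22, 5.52 and 4.50 FPKM in siC replicates 1 to 3, corresponding to 754, 1169 and 410 reads. In siIGF2BP1 replicates 1 to 4 it was at 5.24, 4.43, 4.90 and 4.85 FPKM. The highest siIGF2BP1 library lay between the siC libraries and the groups overlapped. The means were 5.08 ± 0.52 FPKM (SD, n = 3) and 4.85 ± 0.33 FPKM (SD, n = 4), or 95.5% of siC. The log2 difference was -0.06 with a 95% interval from -0.29 to 0.16 (limma adjusted p = 0.741, two-sided exact permutation p = 0.571). Without siC replicate 3, which had the lowest BTRC value of that group, it was -0.15 with an interval from -0.34 to 0.05. The mRNA of the ligase receptor thus differed by less than the spread between libraries.

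Of 11 genes listed around BTRC, comprising the SCF core, its paralogue FBXW11 (β-TrCP2) and known substrates of the ligase, all 11 were tested and none of them passed the threshold in either direction (0 lower, 0 higher). Against 25.9% of all genes, 0 of them had an unadjusted p under 0.05 (limma). Their median log2 difference was 0.04, beside -0.017 for all genes, and it was also 0.04 without siC replicate 3, with 0 called. FBXW11 itself was at 20.1 ± 1.57 FPKM in siC (SD, n = 3) and 19.2 ± 0.743 FPKM in siIGF2BP1 (SD, n = 4), a log2 difference of -0.06, or -0.00082 without siC replicate 3.

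MAPK4 was low in all libraries. It was at 0.283, 0.234 and 0.315 FPKM in siC, from 47, 57 and 33 reads. In siIGF2BP1 it was at 0.327, 0.302, 0.427 and 0.365 FPKM, from 45, 43, 43 and 36 reads. Of the siIGF2BP1 libraries 3 were above every siC library and replicate 2 lay below siC replicate 3. The mean of siIGF2BP1, 0.355 ± 0.0545 FPKM (SD, n = 4), was 128% of that of siC, 0.278 ± 0.0409 FPKM (SD, n = 3). MAPK4 was the only member with a higher mean after depletion. The log2 difference was 0.27 with a 95% interval from -0.29 to 0.82 in the fit without a filter (limma adjusted p = 0.669, two-sided exact permutation p = 0.114), and 0.34 (-0.24 to 0.92) without siC replicate 3. Summed over libraries, 137 reads in siC gave 0.267 FPKM (95% Poisson interval 0.224 to 0.315) and 167 reads in siIGF2BP1 gave 0.348 FPKM (0.297 to 0.405). These intervals, and those of the same kind below, cover counting error only.

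The list around MAPK4 held 8 genes, its relative MAPK6 (ERK3), the kinase MAPKAPK5 (MK5) that both activate, and other kinases and outputs. Of these 6 were tested, and 0 were lower and 0 higher at the threshold (limma). An unadjusted p under 0.05 was found for 1 lower and 1 higher gene (limma), against 25.9% of all genes in either direction. The list median was 0.0014. When siC replicate 3 was left out, the median was 0.06 and 1 gene passed in the lower direction (6.67% of all genes), NLK, a kinase of the Wnt pathway named after its value was seen, with a log2 difference of -0.28. MAPK6 was at 43.8 ± 1.91 FPKM in siC (SD, n = 3) and 42.1 ± 0.943 FPKM in siIGF2BP1 (SD, n = 4), so that of the ERK3 and ERK4 pair these libraries held mainly the mRNA of the former. Its log2 difference was -0.06, or -0.02 without siC replicate 3.

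CD44 was at 0.893, 0.534 and 0.636 FPKM in siC, from 196, 172 and 88 reads. In siIGF2BP1 it was at 0.444, 0.429, 0.465 and 0.421 FPKM, from 81, 81, 62 and 55 reads. All siIGF2BP1 libraries lay below all siC libraries, and the siC libraries were spread more widely, with replicate 1 the highest. The same arrangement was found for 2.64% of 19480 genes under 1 FPKM and above 0, and for 15.1% of the genes tested. A gene at 0 in any siC library cannot show it, so the 2.64% is a low reference for CD44, which had reads in every library. The means were 0.687 ± 0.185 FPKM (SD, n = 3) and 0.440 ± 0.0193 FPKM (SD, n = 4), or 64.0% of siC.

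The log2 difference of CD44 was -0.52 with a 95% interval from -1.07 to 0.03 in the fit without a filter (limma adjusted p = 0.343). The two-sided exact permutation p was 0.0571, the smallest that 3 against 4 libraries can give. With voom on recovered reads the difference was -0.59 (-1.01 to -0.16, limma adjusted p = 0.0886). Leaving out siC replicate 3 gave -0.56 (-1.18 to 0.07), and leaving out siC replicate 1 gave -0.34, the smallest difference with 1 library left out. The 456 reads in siC gave 0.670 FPKM (95% Poisson interval 0.610 to 0.735) and the 279 in siIGF2BP1 gave 0.440 FPKM (0.390 to 0.494). These intervals did not overlap.

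The 15 genes listed around CD44 comprise hyaluronan synthases, hyaluronidases, other hyaluronan receptors, its ligand osteopontin, the ERM proteins and merlin that link it to actin, and the ESRP splicing factors. Only 7 were tested, and 0 were lower and 0 higher at the threshold (limma), while 4 lower genes and 0 higher ones had an unadjusted p under 0.05, as 25.9% of all genes had in either direction. All 7 tested genes had a lower mean in siIGF2BP1, and the median of these 7 was -0.24 beside -0.017 for all genes. Under the filter the direction was mixed. HAS2 (0.164 FPKM in siC, 0.383 in siIGF2BP1) and ESRP1 (0.388 and 0.470 FPKM) had a higher mean. HAS3, HYAL1, LYVE1, STAB2 and MSN had a lower one, and HAS1 was at 0 in both groups. With siC replicate 3 left out, the median was -0.29 and 3 of the 7 genes were lower at the threshold, where 6.67% of all genes were. These were RDX, an ERM protein, at -0.26, NF2, which encodes merlin, at -0.29 and ESRP2, a splicing factor of epithelial cells, at -0.61, named here after their values were seen. With the GC trend of each library removed or other settings, CD44 itself stayed below 0 and short of the threshold.

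**Figure D2:**
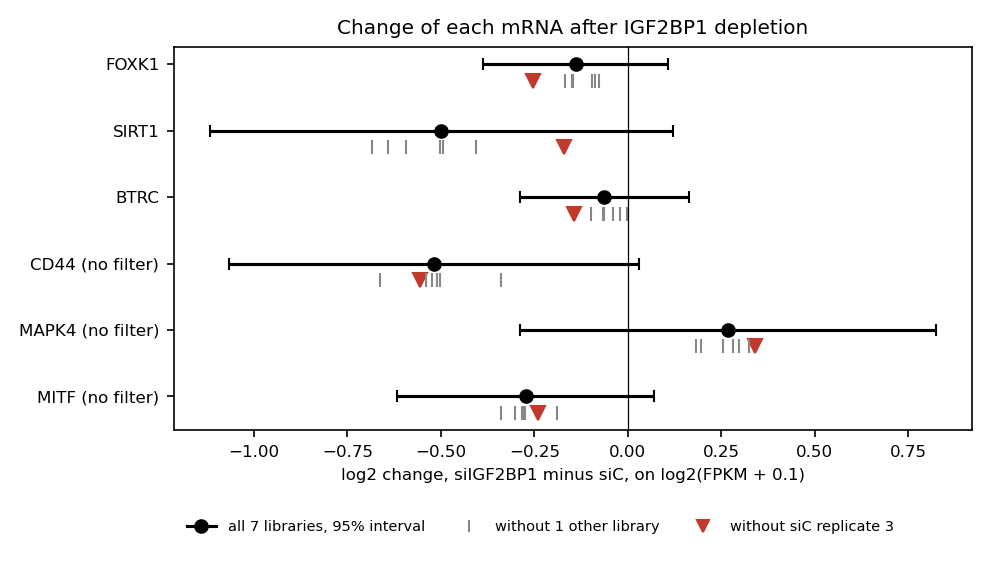
Log2 difference of each mRNA, siIGF2BP1 minus siC, on the log2(FPKM + 0.1) scale (black points) with its 95% interval from limma (bars), and the same difference with 1 library left out (grey ticks; red triangle, without siC replicate 3). All 6 intervals include 0, and SIRT1 moves from -0.50 to -0.17 without siC replicate 3.

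SIRT1 was at 5.12, 4.82 and 9.91 FPKM in siC, from 509, 702 and 621 reads. In siIGF2BP1 it was at 4.44, 5.37, 3.61 and 4.35 FPKM, from 366, 458, 218 and 257 reads. The value in siC replicate 3 was far above all others, the remaining siC libraries lay within the range of siIGF2BP1, and the groups overlapped. The means were 6.62 ± 2.86 FPKM (SD, n = 3) and 4.44 ± 0.718 FPKM (SD, n = 4), or 67.1% of siC. The log2 difference was -0.50 with a 95% interval from -1.12 to 0.12 (limma adjusted p = 0.288, two-sided exact permutation p = 0.171). Without siC replicate 3 it was -0.17 with an interval from -0.53 to 0.19 (limma adjusted p = 0.449).

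The SIRT1 level in siC replicate 3 exceeded the mean of siC replicates 1 and 2 by 0.98 on the log2 scale. Among the 500 tested genes nearest to it in GC content, the median of this excess was 0.16 and SIRT1 lay at percentile 96.0. With the GC trend of each library removed, an alternative chosen after the data were seen, the difference between groups was -0.51 (limma adjusted p = 0.158). The part of other properties of this library in the SIRT1 value was not tested.

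**Figure D3:**
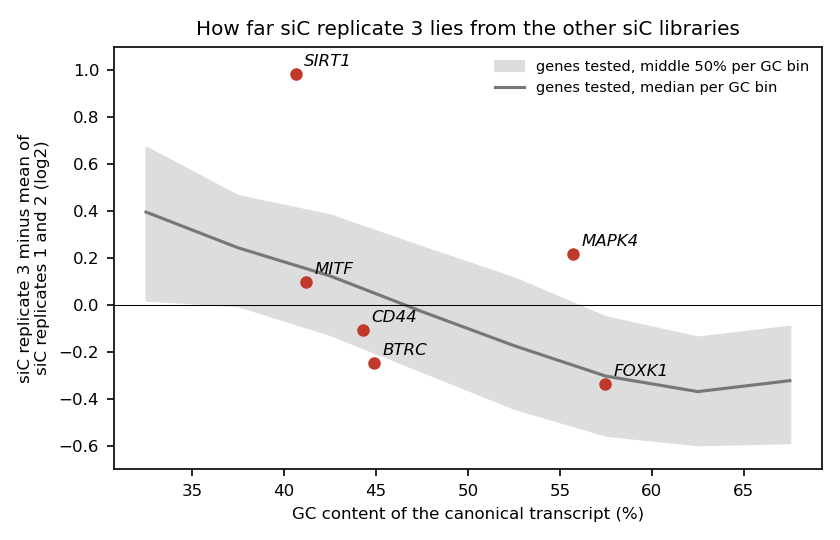
Difference of siC replicate 3 from the mean of siC replicates 1 and 2 (log2, vertical axis) for the 6 mRNAs (red points) against the GC content of the canonical transcript in percent, with the median (line) and the middle 50% (grey band) of all genes tested in each GC bin. The line falls from 0.40 in the lowest bin shown to below 0 in the GC-rich bins; FOXK1 lies on it, and SIRT1, at 0.98, lies far above it.

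The list around SIRT1 held its 6 paralogues, enzymes of NAD supply, regulators and substrates, 15 genes in all. Of 14 tested, 2 were lower (2.28% of all genes) and 0 higher (1.65%) at the threshold, and the list median was -0.03. With siC replicate 3 left out the counts were again 2 and 0, beside 6.67% and 3.59% of all genes, and the median was -0.14. NAPRT, which feeds nicotinic acid into NAD synthesis, fell from 7.90 ± 1.31 FPKM (SD, n = 3) to 4.39 ± 0.372 FPKM (SD, n = 4), a log2 change of -0.82 (SE 0.13, limma adjusted p = 0.00904). FOXO3, a forkhead factor that SIRT1 deacetylates, fell from 10.1 ± 0.972 FPKM (SD, n = 3) to 6.73 ± 0.456 FPKM (SD, n = 4), a log2 change of -0.57 (SE 0.09, limma adjusted p = 0.00904). Both lay close to the threshold and lost it in 6 of 7 fits with 1 library left out, keeping it without siC replicate 3.

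None of the paralogues passed the threshold. The mitochondrial sirtuin SIRT4 had the largest difference among them, 0.77 with an interval from 0.004 to 1.53 (limma adjusted p = 0.191), from 1.01 ± 0.424 FPKM in siC and 1.71 ± 0.357 FPKM in siIGF2BP1, and 0.40 without siC replicate 3. SIRT2, mainly cytoplasmic, stood at -0.20 and the mitochondrial SIRT3 at -0.08, or at -0.32 and -0.15 without siC replicate 3. SIRT5, the nuclear SIRT6 and the nucleolar SIRT7 stood at 0.10, -0.05 and 0.09, and each of these changed sign under at least 1 alternative.

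FOXK1 was at 9.74, 9.89 and 7.74 FPKM in siC, from 2784, 4149 and 1395 reads, the deepest coverage of the members. In siIGF2BP1 it was at 8.35, 7.48, 8.73 and 8.37 FPKM, from 1982, 1837, 1515 and 1423 reads. The siIGF2BP1 libraries lay below siC replicates 1 and 2, while siC replicate 3 was lower than all of them but replicate 2, so the groups overlapped. The means were 9.12 ± 1.20 FPKM (SD, n = 3) and 8.24 ± 0.532 FPKM (SD, n = 4), or 90.3% of siC. The log2 difference was -0.14 with a 95% interval from -0.39 to 0.11 (limma adjusted p = 0.466, two-sided exact permutation p = 0.229).

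The difference of FOXK1 without siC replicate 3 was -0.25 with an interval from -0.42 to -0.08 (limma adjusted p = 0.0445), short of the threshold of 0.01. In siC replicate 3 FOXK1 differed from the mean of the other siC libraries by -0.34 on the log2 scale, and the median of the 500 tested genes nearest in GC content was also -0.34. With the GC trend removed the difference was -0.13 (limma adjusted p = 0.13). The lowest adjusted p over all alternatives, 0.0153, came from the fit with library weights, and the highest was 0.747.

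Around FOXK1, 8 genes were listed, namely its paralogue FOXK2, the SIN3 corepressors, the deubiquitinase BAP1, the Dishevelled proteins that it carries to the nucleus, the transcription factor SRF and PDLIM7, which the study followed together with FOXK1. All 8 were tested, 1 was lower (2.28% of all genes) and 0 higher (1.65%) at the threshold, and the list median was -0.17. An unadjusted p under 0.05 was found for 3 lower genes and 0 higher ones (limma), against 25.9% of all genes in either direction. A lower mean in siIGF2BP1 was found for 7 of the 8. Without siC replicate 3 the counts were again 1 and 0, beside 6.67% and 3.59% of all genes, and the median was -0.29. SRF was put on the list as the transcript the study pursued, in part from these libraries, so its direction is not independent evidence. SRF fell from 15.6 ± 0.110 FPKM (SD, n = 3) to 7.55 ± 0.554 FPKM (SD, n = 4), a log2 change of -1.04 (SE 0.07, limma adjusted p = 0.000536), and the change was also -1.04 without siC replicate 3. FOXK2 was at 20.9 ± 0.785 FPKM in siC and 18.2 ± 0.675 FPKM in siIGF2BP1, a log2 difference of -0.20 (interval -0.34 to -0.06, limma adjusted p = 0.0746). All its siIGF2BP1 libraries lay below all siC libraries, as for 15.1% of the genes tested. Without siC replicate 3 FOXK2 stood at -0.17 (limma adjusted p = 0.0467). PDLIM7, which encodes a PDZ and LIM domain protein, stood at -0.13 (-0.55 to 0.28), or -0.34 without siC replicate 3.

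The CArG box, the motif bound by SRF, was searched on both strands in promoter windows from 250 bases before to 50 after the gene start (RefSeq). It was found in 0 of the 5 members with a window in the table, FOXK1 included, in SRF itself and in 1.29% of 27305 windows. BTRC was not in the table. The absence of the letters from a window does not tell whether SRF binds there or elsewhere. The study reported SRF at the FOXK1 promoter by chromatin immunoprecipitation in ES-2 cells, an ovarian cancer line.

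MITF was near the limit of detection. It was at 0.0382, 0.0434 and 0.0505 FPKM in siC, from 6, 10 and 5 reads. In siIGF2BP1 it was at 0, 0.0371, 0.0210 and 0.0214 FPKM, from 0, 5, 2 and 2 reads. All siIGF2BP1 libraries lay below all siC libraries, but the highest of the former and the lowest of the latter were nearly equal, and 2.64% of genes under 1 FPKM and above 0 showed the same arrangement. As for CD44, that share includes genes at 0 in a siC library, which cannot show it. A count of 0 in siIGF2BP1 replicate 1 allows up to 3 reads, or 0.0230 FPKM.

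Summed over libraries, 21 MITF reads in siC gave 0.0432 FPKM (95% Poisson interval 0.0267 to 0.0660) and 9 in siIGF2BP1 gave 0.0198 FPKM (0.00907 to 0.0376), and these intervals overlapped. The log2 difference on the log2(FPKM + 0.1) scale was -0.27 with an interval from -0.62 to 0.07 (limma adjusted p = 0.457, two-sided exact permutation p = 0.0571). The pseudocount exceeds the level of MITF, so this scale understates any difference, and voom on the reads gave -1.40 with an interval from -2.91 to 0.12 (limma adjusted p = 0.261). Leaving out siC replicate 3 gave -0.24. Whether MITF mRNA differed was not detectable at this depth.

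Genes of the melanocyte program that MITF directs were also low. TYR and TRPM1 were at 0 in every library, and DCT and MLANA had at most 1 read per library. PMEL, which forms the melanosome matrix, was at 0.230 FPKM in siC and 0.250 FPKM in siIGF2BP1, from 7 to 29 reads. The melanosomal enzyme TYRP1 had 0 to 5 reads per library, with a mean of 0.00556 FPKM in siC and 0.0649 FPKM in siIGF2BP1 (limma adjusted p = 0.0724 without a filter). The melanocyte genes given here were named after their values were seen. Of 9 genes listed, 1 was tested, the family member TFE3. TFE3 fell from 16.5 ± 0.601 FPKM (SD, n = 3) to 11.9 ± 0.879 FPKM (SD, n = 4), a log2 change of -0.47 (SE 0.07, limma adjusted p = 0.00928). This call was also close to the threshold and was lost in 6 of 7 fits with 1 library left out, though not without siC replicate 3 (-0.44). The family members TFEB (0.576 FPKM in siC, 0.452 in siIGF2BP1) and TFEC (0.490 and 0.337 FPKM) were under the filter.

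Other RNAs known as IGF2BP1 targets, 14 in all and including the non-coding H19, gave a comparison for the members. Of 10 tested, 0 were lower (2.28% of all genes) and 1 higher (1.65%) at the threshold (limma). An unadjusted p under 0.05 was found for 3 lower and 2 higher genes (limma), against 25.9% of all genes in either direction. The median log2 difference of the 10 was -0.03, but 0.10 without siC replicate 3. ABCB1, the multidrug transporter whose coding region IGF2BP1 binds, rose from 9.16 ± 0.201 FPKM (SD, n = 3) to 13.4 ± 0.268 FPKM (SD, n = 4), a log2 change of 0.55 (SE 0.05, limma adjusted p = 0.00154). This call was lost in 5 of 7 fits with 1 library left out. Without siC replicate 3, which kept it, 2 of the 10 were higher (3.59% of all genes) and 0 lower at the threshold, namely ABCB1 (0.54) and IGF2 (0.57), the latter named after its value was seen.

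**Figure D4:**
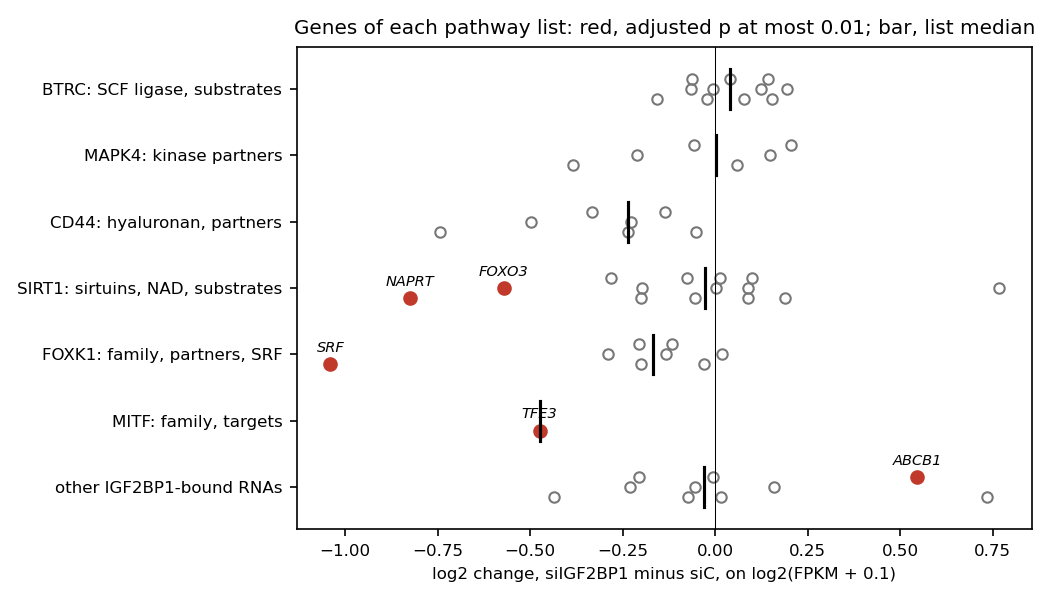
Log2 difference, siIGF2BP1 minus siC on log2(FPKM + 0.1), of each tested gene in the lists around the members and among other published IGF2BP1-bound RNAs (points; red, adjusted p of at most 0.01 in limma; black bar, list median). Red points are NAPRT (-0.82), FOXO3 (-0.57), SRF (-1.04) and TFE3 (-0.47) on the lower side and ABCB1 (0.55) on the higher side.

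The tested genes whose pattern over the 7 libraries was most like that of each tested member were also taken out, by Pearson's r of log2(FPKM + 0.1) among protein-coding genes. For BTRC these were CLEC16A (0.99) and FAM134A (0.98). For SIRT1 they were PCDH17 (0.99) and ZFAND5 (0.99), and for FOXK1 KIFC3 (0.99) and AHCY (0.99). With 7 libraries that share the same depths and GC trends and 1 library that dominates the SIRT1 pattern, these values describe the libraries and carry no test.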

How the data were processed

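Total RNA of 7 Huh-7 libraries was depleted of ribosomal RNA (RiboCop), prepared with a directional kit and sequenced on a NextSeq 500. Per the labels and methods, the authors used Cutadapt 1.14, HISAT2 2.1.0 on hg38, SAMtools 1.5, featureCounts 1.5.3 with Ensembl release 89, and edgeR 3.18.1 with TMM normalization. The authors deposited FPKM values per gene and library. FPKM times gene length was a whole multiple of 1 read for 100% of values above 0 (tolerance 0.1 read), which gave reads and depth. Its 3 columns of the authors' own comparison (log2 fold change, p-value and FDR) were not used.

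Groups came from the sample titles. Genes averaging 1 FPKM or more were tested with limma 3.58.1 in R 4.3.3 (trend, log2(FPKM + 0.1), no covariates, two-sided, Benjamini-Hochberg over all genes tested, threshold 0.01). The log2 scale understates changes of low genes. Members under the filter were taken from the fit without a filter and from the exact permutation test over 35 arrangements. The p-values measure the spread between these libraries, which may be technical.

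The members and lists were chosen with earlier results of these data known. From each list, genes past the threshold, paralogues of the members, SRF and PDLIM7 were named, and for each tested member the 2 most correlated genes. CTNNB1 is in 2 lists, and 2 genes planned for the lists are not reported here. Seed, GGAC and CAT matches were read from GENCODE v44 transcripts (GRCh38), and miRNAs and promoters from RefSeq (GRCh38.p14). The fit was tested on simulated data. Alternatives were a pseudocount of 1, no filter, a filter at 5 FPKM, voom on recovered reads, quantile normalization, median centring, library weights, a replicate block, a threshold of 0.05 and leaving out each library; removal of GC trends (lowess) was added after the data were seen. The sample titles do not say whether replicate numbers pair the libraries.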

Additional observations from a re-analysis of the deposited data

How the results depend on the processing

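No member passed the threshold, and none changed sign, under any alternative it was run in. CD44, MAPK4 and MITF were run without the filter of 1 FPKM, where some alternatives called almost no gene. Of 34319 genes, 1 was lower and 0 higher without siIGF2BP1 replicate 1, and 14 and 22 without siIGF2BP1 replicate 4. Without siC replicate 3 these counts were 586 and 302. Where so few genes passed, the absence of CD44, MAPK4 and MITF from the calls says little. The log2 differences ranged from -0.15 to -0.0019 for BTRC (16 alternatives), 0.08 to 0.38 for MAPK4 (15), -0.66 to -0.22 for CD44 (15), -0.68 to -0.17 for SIRT1 (17), -0.25 to -0.08 for FOXK1 (17) and -1.40 to -0.03 for MITF (15). BTRC, with a mean under 5 FPKM, could not be run with that filter. The number of all genes called, 583, was 352 without a filter, 2744 with library weights, 1007 with the GC trend removed, 1713 at a threshold of 0.05 and 129 to 1523 with 1 library left out, the most without siC replicate 3; the causes were not tested. With the replicate block it was 0 (limma, 2389 at an unadjusted p under 0.05, against 3838 without it), and siIGF2BP1 replicate 4, alone in its block, added nothing. SRF then stood at -1.02 and ABCB1 at 0.55, both past the threshold no longer. Deviations of libraries with the same number correlated at -0.03, -0.12 and -0.11. This check cannot decide whether the numbers pair the libraries, because GC trends of siC and siIGF2BP1 ran in opposite directions for replicates 2 and 3. The rho was 0.30 and -0.39 for replicates 2, and -0.43 and 0.26 for replicates 3. For replicates 1 it was 0.43 and 0.0017, so this reason does not cover them.

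Signs changed for MAPK6 with quantile normalization (0.020), for SIRT5 (-0.016) and SIRT7 (-0.030) with library weights, and, with 1 library left out, for SIRT7 (-0.035 without siC replicate 3 to 0.157), PDLIM7 (-0.342 without siC replicate 3 to 0.011 without siC replicate 1) and SIRT6 (-0.220 without siC replicate 3 to 0.030 without siC replicate 1, also 0.026 and 0.0074 without siC replicate 2 and siIGF2BP1 replicate 2), none past the threshold. TFE3, NAPRT, FOXO3 and ABCB1 lost their call in 11, 10, 9 and 6 of 17 alternatives, all with the same direction. Depth limits MITF and MAPK4, with at most 10 and 57 reads per library.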
